A study of Mus musculus with 68 samples.

Results

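The apical progenitors (APs) of the late neurogenic cortex at E16 were ranked by the level of mitotic transcripts, and the 6 highest of 17 cells were compared with the 6 lowest across all other genes. The ranking score of a cell was the mean log2 signal of Cdc20, Plk1, Aurka, Cenpa and Ube2c, each read by its probe set of highest mean over all 68 arrays of the series. Ccnb1, the other gene of the rule, could not be matched to a probe set in the gene table used here, so 5 of 6 rule genes entered. All 17 cells came from dissociated fragments of the VZ/SVZ, the germinal layers of the cerebral wall, of CD1 mice at E16, with no treatment in the labels, and each was picked by hand and hybridized as amplified cDNA to its own Affymetrix array. For comparison, 23 E11 APs from the dorso-lateral wall of CD1 mice were ranked by the same score. For scale, the score was also taken in intermediate progenitors (IPs) of E16 and the E16 neuron, in E11 neurons, and in 4 APs taken at E14, 3 days after the cerebral wall of E11 CD1 mice had been electroporated with plasmids for the Notch intracellular domain (NICD, under a CAG promoter) and the cell cycle inhibitor p18 (under an EF promoter). The study asked whether the changes that progenitors undergo with embryonic age depend on the cell cycle. Because the labels name no embryo or litter, each group counts as 1 sample, and the ranking was made on these same arrays. Values are described by means, the SD between cells and overlap, with no significance test.

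The typing of the 17 cells as APs is the study's own and came from these arrays. Before hybridization, the study had chosen its E11 and E16 cDNAs as progenitors by qPCR of marker genes. The marker counts given here are thus not those of an unselected draw of cells. Sox2, Pax6 and Fabp7, which mark neural stem cells of the ventricular zone, were over the level of 20 copies per cell in 17 of 17 cells, and Id4 was over it in 16. Ttyh1, an AP marker of the study, was over it in 15 cells, with 4 of the 6 lowest among them, and Slc1a3 in 9. That level was a log2 signal of 9.72, the median over the arrays of the phe RNA added to each lysis tube. In single cells this RNA read unevenly, from a signal of 93.5 in E16-81C to 3972 in E16-81A, where the level is 842. A transcript of 20 copies could thus read under the level in a cell, and counts of cells over it are not counts of copies. Eomes, the defining factor of IPs, was over the level in 1 cell, E16-81L (10.07), which also held Insm1 at 11.10. Insm1 and Neurog2, also of IPs, were over it in 5 and 3 cells. The neuronal genes Tubb3, Neurod6 and Stmn2 were over it in 0 cells, Dcx in 3 and Map2 in 11. The globin gene Hba-a1, the microglial genes Cx3cr1 and Aif1, the vessel genes Pecam1, Cdh5 and Kdr, the collagen genes Col1a1 and Col3a1, the interneuron genes Dlx1, Dlx2 and Gad1 and the glial genes Sox10, Gfap and Aqp4 were over it in 0 of 17 cells by their brightest probe sets, and the glial gene Olig2 in 2. By the probe sets of the gene comparison, 1 of the 6 lowest cells held the microglial genes Csf1r and Tyrobp over it, at a mean of 12.06. The pericyte gene Pdgfrb and the collagen gene Col1a2 were also over it in single cells, as given further on. Hes5, a Notch target of APs, was over it in 7 of 17 cells.

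Transcripts of mitotic regulators accumulate in G2 and are degraded or repressed as cells return to G1, whereas transcripts of the DNA replication machinery are induced at the G1/S transition. In the ventricular zone, APs move their nuclei with the cell cycle, replicating DNA at the basal side and dividing at the ventricular surface. Cdc20 activates the anaphase-promoting complex, Ube2c is its ubiquitin-conjugating enzyme, Plk1 and Aurka are mitotic kinases and Cenpa is the histone H3 variant of centromeres. Many mitotic promoters carry a cell cycle genes homology region (CHR), bound by MuvB-containing complexes, beside CCAAT boxes bound by NF-Y, whereas replication promoters often carry E2F sites.

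RefSeq promoter sequences (build GRCm38.p6, 250 bases before to 50 bases after the start site) are shown for ranking genes and for Arhgap19. CHR letters (TTTGAA or TTCGAA on either strand) and CCAAT letters (either strand) are in capitals, because these letters recur in the genes that set the ranking. Arhgap19 is in none of the mitosis lists described further on and was taken from the 15 genes of largest positive difference. Cdc20 lies at chr4:118437294-118437593, minus strand, Plk1 at chr7:122159185-122159484, plus strand, Cenpa at chr5:30666636-30666935, plus strand, and Arhgap19, which the ranking did not use, at chr19:41802035-41802334, minus strand. Sequences run 5′ to 3′ along the gene.
Cdc20: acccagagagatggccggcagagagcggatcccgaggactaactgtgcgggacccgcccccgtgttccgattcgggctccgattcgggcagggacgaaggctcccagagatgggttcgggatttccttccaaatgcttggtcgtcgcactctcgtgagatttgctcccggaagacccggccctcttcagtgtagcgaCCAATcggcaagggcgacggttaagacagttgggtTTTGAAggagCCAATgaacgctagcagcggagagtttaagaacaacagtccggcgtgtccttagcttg
Plk1: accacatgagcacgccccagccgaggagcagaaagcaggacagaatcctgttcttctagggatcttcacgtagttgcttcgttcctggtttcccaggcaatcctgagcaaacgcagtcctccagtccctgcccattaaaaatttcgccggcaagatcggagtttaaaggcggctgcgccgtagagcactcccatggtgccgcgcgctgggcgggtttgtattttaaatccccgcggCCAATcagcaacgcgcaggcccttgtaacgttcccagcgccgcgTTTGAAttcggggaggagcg
Cenpa: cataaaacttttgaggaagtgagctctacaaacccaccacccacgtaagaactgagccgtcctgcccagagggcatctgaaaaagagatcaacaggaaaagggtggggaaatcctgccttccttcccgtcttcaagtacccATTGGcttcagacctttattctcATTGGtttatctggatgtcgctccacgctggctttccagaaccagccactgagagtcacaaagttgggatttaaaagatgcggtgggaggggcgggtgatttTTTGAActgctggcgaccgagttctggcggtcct
Arhgap19: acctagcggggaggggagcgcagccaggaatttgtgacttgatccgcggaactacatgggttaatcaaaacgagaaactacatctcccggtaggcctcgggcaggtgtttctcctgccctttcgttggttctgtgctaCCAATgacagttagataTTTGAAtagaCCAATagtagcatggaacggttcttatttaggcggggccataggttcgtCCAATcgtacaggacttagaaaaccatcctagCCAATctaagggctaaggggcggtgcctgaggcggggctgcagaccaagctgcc

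CHR letters were present in the windows of 5 of 5 rule genes, which also each held CCAAT letters. Among the measured genes of the 5 mitosis lists described further on, 58 of 104 windows (55.8%) held CHR letters, against 13.2% of the 8822 measured genes with a window and 19.4% of all 27025 windows. CCAAT letters were held by 66.3% of the mitosis windows, against 39% of measured genes and 37.9% of all windows. In the replication list, 10 of 47 windows (21.3%) held CHR letters and 61.7% held CCAAT letters. Of the 15 largest positive differences, which include Arhgap19, 10 genes had a window. CHR letters were in 5 of these windows and CCAAT letters in 4 (40%), the latter near the share of measured genes. These matches are letters in a window and no binding was measured.

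The score ran from 4.32 in E16-81M to 13.13 in E16-78O, with a median of 10.56 over the 17 cells. The 6 high cells (E16-78O, 78G, 75H, 81P, 81A and 81L) lay within 12.47 to 13.13, the 5 middle cells (81H, 81i, 81C, 78C and 82O) within 10.23 to 12.12, and the 6 low cells (76F, 81G, 77M, 81E, 81J and 81M) within 4.32 to 9.58. At the upper border, E16-81L scored 12.47 and the next cell, E16-81H, 12.12. At the lower border, E16-82O scored 10.23 and E16-76F 9.58. The high cells lay close together, with an SD of 0.25 between cells, whereas the low cells were spread widely, with an SD of 2.16.

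The genes that set the score are given as a description. In the high cells, lowest, median and highest log2 signals were 13.08, 13.64 and 13.78 for Cdc20, and in the low cells 4.20, 9.03 and 12.25. Plk1 stood at 12.17, 12.45 and 13 in the high cells and 5.36, 8.54 and 11.94 in the low cells. For Ube2c the signals were 13.37, 13.72 and 13.91 in the high cells and 4.26, 10.79 and 12.99 in the low cells. Low cells did not lack every mitotic transcript, since Cdc20, Plk1 and Ube2c each passed 20 copies in 3 of 6 of them, though not in the same 3. E16-81G carried Cdc20, Cenpa and Ube2c at 12.09, 12.64 and 11.87 but Plk1 at 5.36, and E16-76F carried Plk1, Cenpa and Ube2c at 11.94, 12.30 and 12.99 but Cdc20 at 6.60. Aurka stood at 9.15, 11.39 and 13.35 against 2.08, 3.58 and 4.32, and passed 20 copies in 4 high cells and 0 low cells. Cenpa stood at 12.52, 13 and 13.29 in the high cells and 3.51, 4.13 and 12.64 in the low cells, so its groups overlapped. E16-81M and E16-81J had the lowest scores, and in both all 5 genes were under 20 copies, with Ube2c in E16-81J just under it (9.71).

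**Figure D1:**
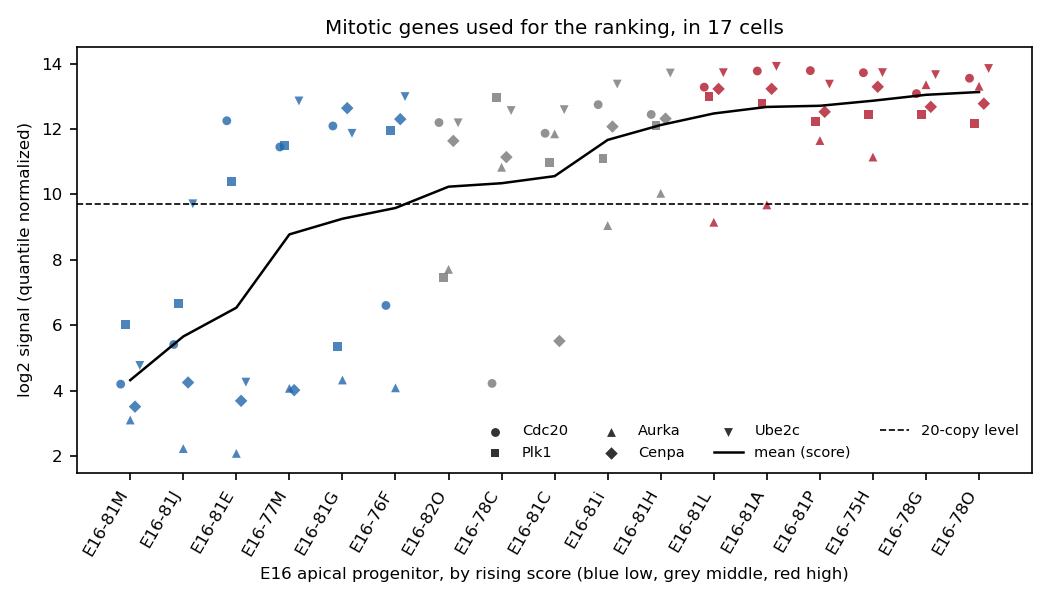
Log2 signal (quantile normalized) of the 5 rule genes in each of the 17 E16 APs, ordered by rising score, with the score as a black line and the 20-copy level of 9.72 dashed. The 6 high cells (red) keep all genes but Aurka over the level, whereas 4 low cells (blue) carry 2 or 3 of the 5 genes over it and E16-81J and E16-81M carry 0.

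Across the 10784 other genes measured, those with a signal over the 20-copy level in at least 1 of 68 cells, the median difference between high and low cells was 0.04. Of these genes, 5535 had a higher mean in the high cells. A mean difference of at least 2 on the log2 scale, used here only as a mark of size, was found for 1386 genes higher in the high cells (12.9%) and 1143 lower (10.6%). The signals of the 6 high and 6 low cells did not overlap at all for 28 genes higher in the high cells (0.26%) and 20 lower (0.185%). With the signals as deposited, in which the high cells were brighter overall by a median of 0.58 over all genes, those counts were 62 and 3, and with signals scaled to the lys spike 52 and 3. Single-cell signals are noisy, as the SD between the 17 cells had a median of 2.71 over all genes, and below 20 copies they have no reliable order. A log2 difference against a group below that level is thus not a fold change, and folds are given as lower bounds with every signal of the dimmer group raised to the level.

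The genes with mitotic functions were higher in the high cells as a group. Of 126 measured genes in 5 lists of mitotic genes, from which the rule genes are left out, 101 had a higher mean in the high cells, 69 by at least 2 and 5 were lower by at least 2, and the median difference was 2.22. By at least 2, 54.8% were thus higher and 3.97% lower, against 12.9% and 10.6% of all genes. The high cells each had 77 to 86 of these genes over 20 copies, the middle cells 61 to 85 and the low cells 33 to 70, so that high and low cells did not overlap. Of the 28 genes without overlap that were higher, 9 belonged to these lists. Much of each median came from signals under 20 copies, because with those set to the level it was 0.50 for all lists, 0.92 for G2/M, 0.79 for the spindle, 0.16 for the kinetochore and 0.21 for the anaphase-promoting complex. Without the 3 lowest cells (E16-81E, 81J and 81M) the median over all lists was 1.47.

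Among 25 cyclins, kinases and regulators of G2/M, 21 were higher in the high cells, 15 of them by at least 2 (60%, against 12.9% of all genes). The median was 3.19, and 1.43 without the 3 lowest cells. Cdc25c, the phosphatase that activates the mitotic kinase Cdk1, had lowest, median and highest signals of 11.14, 11.62 and 12.26 in the high cells and -0.54, 0.89 and 3.52 in the low cells. It was over 20 copies in 6 high, 3 middle and 0 low cells, at least 3.86-fold higher in the high group. In the middle group it stood at 0.17, 11.07 and 11.68, and of these cells only E16-82O was as dim as the low cells. Cdca8, or borealin, of the chromosomal passenger complex, ran from 12.67 to 13.07 in the high cells and from 1.48 to 11.88 in the low cells, without overlap. Ccnf, an F-box cyclin, had means of 10.90 ± 1.17 and 4.72 ± 5.01 (SD, n = 6 cells each) in high and low cells. Cdkn3, a phosphatase of cyclin-dependent kinases, passed 20 copies in 5 high and 0 low cells, with 10.21 ± 3.24 and 4.44 ± 1.04. Ccnb2, a cyclin partner of Cdk1, was over 20 copies in 4 high, 5 middle and 1 low cells. Cdk1 itself passed it in 6 high and 3 low cells. Pkmyt1, an inhibitory kinase of Cdk1, was lower in the high cells (3.66 against 6.70, both under the 20-copy level on average), and the transcription factors Foxm1 and Mybl2 differed by 0.02 and -0.03. Cdk1, Pkmyt1, Foxm1 and Mybl2 were singled out after their values were seen.

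Genes of the spindle had a list median of 3.59, and of 2.28 without the 3 lowest cells. Of 30, 28 were higher in the high cells and 22 by at least 2 (73.3%, against 12.9% of all genes). Tpx2, which activates Aurka on spindle microtubules, stood at 10.42, 11.83 and 12.47 in the high cells and 1.36, 3.22 and 11.70 in the low cells, and was over 20 copies in all 5 middle cells. Of the low cells, only E16-76F had Tpx2 above the level. Tacc3, a microtubule-binding partner of that kinase, was over 20 copies in 6 high and 2 low cells, with means of 11.58 ± 0.59 and 5.42 ± 5.30. Ckap2 passed it in 6 high and 3 low cells, and Fam83d, a spindle protein, in 6 and 1. Psrc1, Kif20a and Kpna2 were the members of this list whose high and low cells did not overlap. Kif20a, a motor of cytokinesis, ran from 10.54 to 12.69 in the high cells and from 2.60 to 10.48 in the low cells. Aspm, a spindle pole protein whose loss causes microcephaly, was held in the list of centrosome and microcephaly genes and stood at 11.17, 11.96 and 12.60 in the high cells and 3.30, 4.13 and 11.69 in the low cells, where E16-81G and E16-76F were above 20 copies, but by its next probe set the difference was -1.15. In that list 9 of 18 members were higher in the high cells and the median was 0.12. Its other named members were Nde1 (3.08), Plk4 (-0.36), the kinase of centriole duplication, and Cetn3 (-0.60), a centrin.

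In the list of kinetochore and spindle checkpoint genes, 27 of 33 were higher in the high cells and 19 by at least 2 (median 2.25, or 1.42 without the low cell E16-77M). The 19 are 57.6% of the list, against 12.9% of all genes. Cenpt, a DNA-binding protein of the inner kinetochore, was over 20 copies in 6 high, 4 middle and 1 low cells and was at least 2.12-fold higher in the high group. The checkpoint kinases Bub1b and Bub1 passed 20 copies in 6 and 5 high cells and in 3 and 2 low cells. Spc25, a subunit of the Ndc80 complex, had means of 11.22 ± 0.87 and 6.44 ± 5.04. Bub3 was detected in all cells and differed by 1.26, yet its 6 high cells (from 12.70 to 13.15) lay above all 6 low cells (from 10.98 to 12.51).

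Genes of mitotic chromatin were divided. Of 24, 8 were higher (33.3%) and 3 lower (12.5%) by at least 2, against 12.9% and 10.6% of all genes. The median of 0.83 is smaller than the SD between cells of the list's mean level (1.08) and was 0.26 without E16-81M and 0.53 without E16-81E. H2ax, the histone variant phosphorylated at DNA breaks, stood at 12.90, 13 and 13.69 in the high cells and 2.60, 7.48 and 12.14 in the low cells, without overlap. Cdca3, a trigger of mitotic entry, passed 20 copies in 6 high and 1 low cells, and Espl1, the protease separase, in 5 and 1. Pttg1, or securin, the inhibitor of separase, ran from 13.19 to 13.54 in the high cells and from 7.05 to 13.14 in the low cells. The 3 members lower by as much were Ncapd3, Smc3 and Ncapg2. The condensin II subunit Ncapd3 had means of 7.57 ± 4.53 in the high cells and 11.28 ± 0.85 in the low cells, and the cohesin subunit Smc3 was over 20 copies in 0 high, 3 middle and 5 low cells, without overlap. Ncapg2, another condensin II subunit, did not reach the level on average and passed it in 0 high and 3 low cells.

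For the anaphase-promoting complex and its inhibitors, 10 of 14 genes were higher in the high cells, as were 5535 of all 10784 genes. By at least 2, 35.7% were higher and 7.14% lower, against 12.9% and 10.6% of all genes. The median was 1, with 1.59 when the high cell E16-78O and 0.60 when the low cell E16-81G was left out. Without the high cell E16-75H it was 0.66. Ube2s, which extends ubiquitin chains on substrates of the complex, was over 20 copies in 6 high and 3 low cells, without overlap. The subunits Cdc23 and Anapc10 were higher on average (5.02 and 3.27), though each passed 20 copies in 1 low cell. Fbxo5, or Emi1, an inhibitor of the complex that accumulates before mitosis, was lower in the high cells, where 0 of 6 passed 20 copies against 5 of 6 low cells (1.09, 7.54 and 8.88 against 7.37, 10.21 and 11.62).

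Genes of DNA replication and the G1/S transition were lower in the high cells. Of 57 measured, 51 had a lower mean, 25 by at least 2 (43.9%, against 10.6% of all genes), and 1 was higher by as much. The median difference was -1.85, or -0.46 with signals under 20 copies set to that level and -1.13 without the 3 lowest cells. The high cells had 13 to 25 of these genes over 20 copies, the middle cells 24 to 41 and the low cells 18 to 41. Of the low cells, 5 had 36 or more, above all high cells, and E16-81G had 18. Promoter windows of Mcm6 (chr1:128359656-128359955, minus strand) and Dtl (chr1:191575495-191575794, minus strand), which were among the genes of largest difference, are shown with E2F letters (TTTCCCGC, TTTGGCGC or TTTCGCGC on either strand, sought after the gene values were known) in capitals. In the Mcm6 window, a pair of matches on opposite strands overlap.
Mcm6: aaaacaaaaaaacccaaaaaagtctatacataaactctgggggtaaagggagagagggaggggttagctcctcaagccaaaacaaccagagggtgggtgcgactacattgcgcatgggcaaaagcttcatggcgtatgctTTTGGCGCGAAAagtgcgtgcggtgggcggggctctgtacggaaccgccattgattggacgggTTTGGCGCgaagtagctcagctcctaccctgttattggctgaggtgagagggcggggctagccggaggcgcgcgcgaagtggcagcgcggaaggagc
Dtl: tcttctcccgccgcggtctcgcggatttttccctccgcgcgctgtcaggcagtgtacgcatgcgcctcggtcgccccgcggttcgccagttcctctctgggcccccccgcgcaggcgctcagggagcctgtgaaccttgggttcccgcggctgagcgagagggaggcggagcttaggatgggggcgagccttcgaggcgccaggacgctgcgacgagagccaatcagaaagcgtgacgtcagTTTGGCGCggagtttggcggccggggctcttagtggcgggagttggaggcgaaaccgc

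E2F letters were present in 14 of 47 windows of the replication list (29.8%) and in 10 of 104 of the mitosis lists (9.62%), against 3.85% of measured genes and 1.91% of all windows. Among the 15 largest negative differences, only 2 of 14 windows held them, and these are the Mcm6 and Dtl windows shown. Dtl is not in the replication list. Mcm6, a subunit of the replicative helicase, stood at 1.03, 3.24 and 11.40 in the high cells and 11.63, 12.60 and 13.10 in the low cells, and was over 20 copies in 1 high, 3 middle and 6 low cells. The high cell above the level was E16-81P, which was still below every low cell, and the low group was at least 5.3-fold higher. Among the other helicase subunits, Mcm3 differed by -3.49, Mcm4 by -2 and Mcm5 by -0.16, values that were looked up after Mcm6 had been seen. Rfc4, a subunit of the clamp loader, was over 20 copies in 0 high, 4 middle and 5 low cells. Lig1, the ligase that joins Okazaki fragments, ran from 4.47 to 7.45 in the high cells, from 9.46 to 12.49 in the middle cells and from 7.79 to 11.96 in the low cells, so that the middle cells resembled the low cells. Prim2, a primase subunit, had means of 7.30 ± 5.07 and 11.06 ± 0.66. Chaf1b, a histone chaperone of replication, did not overlap between the groups but was under 20 copies in all 12 cells. Pcna, the replication clamp, was over 20 copies in 5 high and 6 low cells with a difference of -2.06. Dbf4, the activator of the kinase Cdc7, was the member higher by at least 2 (2.79). Pcna, Chaf1b and Dbf4 were likewise singled out after their values were seen.

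**Figure D2:**
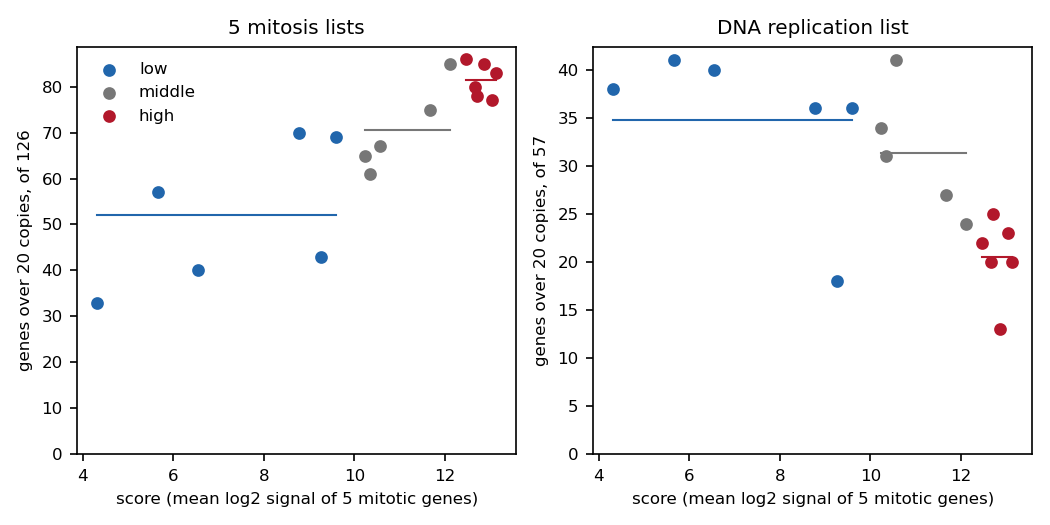
Number of genes over 20 copies in each E16 AP among 126 genes of the 5 mitosis lists (left) and 57 genes of the replication list (right), against the score, with group means as lines (blue low, grey middle, red high). Mitosis genes are most numerous in the high cells (77 to 86), and replication genes are fewer there (13 to 25) than in all low cells but E16-81G.

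In this respect cells varied within the middle and within the low group, and these groups overlapped. E16-81C, of middle score, had 41 replication genes and 67 mitosis genes over 20 copies, and E16-81H, the highest of the middle cells, had 24 and 85, within the range of the high cells. E16-81G had few of both (18 and 43). E16-76F and E16-77M had many of both, with 36 and 69 in the former and 36 and 70 in the latter.

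Of the 15 genes with the largest positive differences among those whose brighter group reached 20 copies on average, 5 belonged to the mitosis lists (Cdc25c, Tpx2, Cenpt, Ccnf and Tacc3). The mean of the middle cells lay between those of the high and low cells for 15 of 15, against 64.0% of all genes at least 2 higher. Arhgap19, a GTPase-activating protein, was over 20 copies in 6 high, 2 middle and 0 low cells and stood at 9.85, 11.61 and 12 against 1.09, 2.70 and 9.67. The low cell E16-76F was just under the level. Pif1, a DNA helicase, was over 20 copies in 6 high, 1 middle and 0 low cells, with 11.09, 12.14 and 12.52 in the high cells and 4.39, 5.11 and 6.63 in the low cells, and was at least 4.72-fold higher. It was thus high in the high cells while 4 of 5 middle cells were under the level. Emp1, a membrane protein, was over 20 copies in 5 high, 1 middle and 0 low cells.

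Other genes with large positive differences are in none of the mitosis lists. Slc30a9, of a zinc transporter family, passed 20 copies in 5 high and 0 low cells, and Sae1, a subunit of the SUMO-activating enzyme, in 5 and 0. The gap junction gene Gjc1 passed it in 5 high, 3 middle and 0 low cells. The RNA methyltransferase gene Nsun2, the transcription factor gene Zbtb33 and the glutaminyl-tRNA synthetase gene Qars were over it in 5, 3 and 5 high cells and in 2, 1 and 2 low cells, so their groups overlapped. Sae1 was higher by its brightest probe set but differed by -0.37 by its next one.

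The 15 largest negative differences held 1 gene of the replication list, Mcm6, and the middle cells lay between the groups for 12 of 15, against 62.3% of all genes at least 2 lower. Dtl, the substrate receptor of the ligase that degrades Cdt1 during S phase, stood at 0.80, 1.89 and 7.44 in the high cells and 9.02, 10.07 and 12.57 in the low cells. Tcf19, a factor with a forkhead-associated domain, was over 20 copies in 0 high, 5 middle and 6 low cells (4.07, 6.08 and 9.67 against 9.88, 11.93 and 13.21), at least 4.06-fold higher in the low group. Dock1, an activator of Rac, was over it in 0 high, 1 middle and 6 low cells, and Acap2, a regulator of Arf6, in 0, 2 and 5. The groups did not overlap for Mcm6, Dtl, Tcf19, Dock1 and Acap2. For the other 10, which overlapped, the number over 20 copies was 2 high and 5 low cells for Vps4b, an ATPase of membrane scission, 1 and 5 for Spast, a microtubule-severing ATPase, 2 and 6 for the RNA exosome subunit Exosc7, 1 and 6 for Rabggtb, which prenylates Rab proteins, and 2 and 6 for Limd2. It was 1 and 5 for the amidase gene Nit2, 1 and 5 for Gpr137b, 2 and 6 for Bhlhb9, 1 and 5 for the pseudokinase gene Stradb, and 2 and 6 for Fam210b. Acap2, Spast, Gpr137b and Stradb were higher in the high cells by their next probe set (0.45, 2.41, 0.19 and 0.56), so their direction rests on the probe set. Bhlhb9 turned to 0.52 when only the 10 cells with the number 81 in their names were split.

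Genes outside the mitosis and replication lists made up 19 of the 28 higher and 16 of the 20 lower genes without overlap. Those lists hold 126 and 57 of the measured genes, so nearly all genes lie outside them. Over all genes, 0.26% and 0.185% did not overlap in the 2 directions. At E11, 21 of the 28 and 15 of the 20 kept their direction, but Chek2, Prr14 and Usp10 (-0.74, -1.71 and -0.75) did not. The DNA damage kinase Chek2 ran from 10.07 to 12.18 in the high cells and from 0.55 to 9.51 in the low cells, with 6 and 0 cells over 20 copies. Prr14, a nuclear lamina protein, ran from 10.45 to 11.16 and from 3.82 to 9.37. Pimreg, a regulator of the metaphase to anaphase step, ran from 12.05 to 12.70 in the high cells, from 9.78 to 12.48 in the middle cells and from 5.22 to 11.77 in the low cells. The abundant tubulin Tubb4b was over 20 copies in all 17 cells but E16-81G, and yet its high cells (from 12.87 to 13.39) lay above all low cells (from 3.98 to 12.44). Usp10, a deubiquitinase, was over 20 copies in 4 high and 0 low cells, Trim59 in 4 and 0, and the brighter Jpt1 in all 17 cells but the middle cell E16-81C. The others higher were Cdc42ep4, Clasrp, Dph5, Emp1, Arhgap19, Pif1, Gm2a, Gadd45gip1, Traf4, Zfp1, 2700099C18Rik and 3830406C13Rik. In 0 of the 12 high and low cells did Gadd45gip1, Zfp1, 2700099C18Rik or 3830406C13Rik pass 20 copies.

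Of the genes lower without overlap, Fbh1, a helicase of stalled replication forks, ran from 4.96 to 9.22 in the high cells and from 9.91 to 11.26 in the low cells, where all 6 passed 20 copies. At E11, Fbh1 was higher in the high cells (1.82). Aldh5a1, an enzyme of GABA breakdown, was over it in 0 high and 2 low cells. Donson, a component of the replisome, was over it in 0 high and 1 low cells, and Paxip1, of the DNA damage response, in 0 and 1. For Wdr76, C1qtnf6, Cbln2, Slit2 and E330013P04Rik, 0 of the 12 cells passed 20 copies, so their order carries little weight. Mapk8ip2, Sdc1 and Rflnb passed it in 2, 2 and 1 low cells and in 0 high cells.

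**Figure D3:**
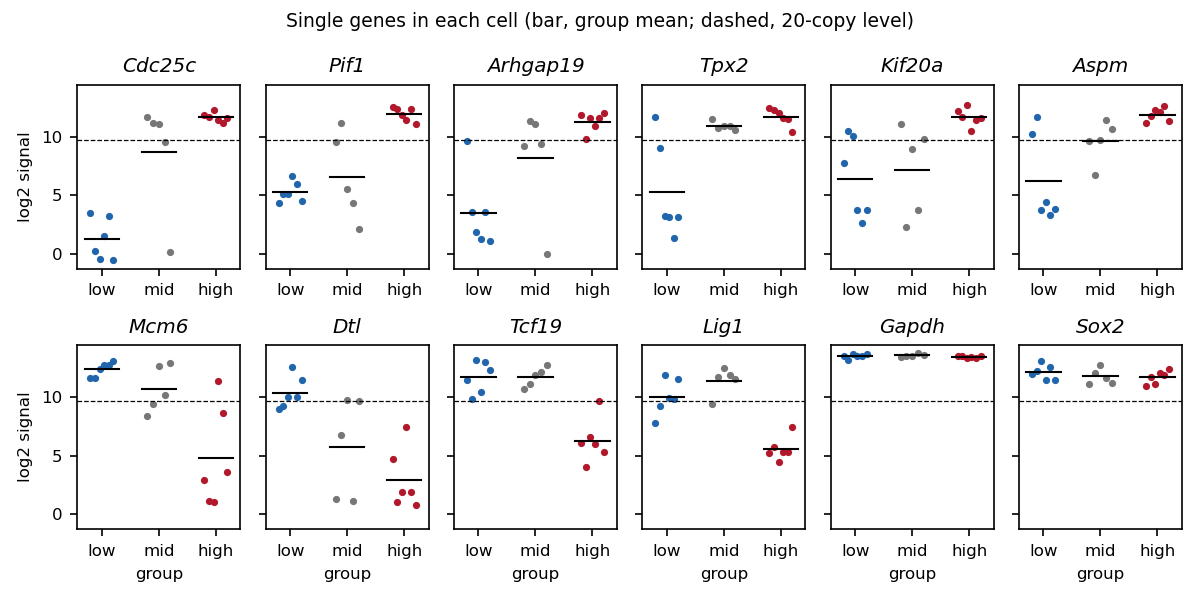
Log2 signal of 12 genes in the 6 low (blue), 5 middle (grey) and 6 high (red) E16 APs, with group means as bars and the 20-copy level dashed. Cdc25c and Pif1 are over the level in all high and no low cells, and Tcf19 is over it in all middle and low cells. Lig1 is over it in 4 of 6 low and no high cells, and Gapdh and Sox2 overlap between the 3 groups.

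Genes of progenitor identity were compared along the same ranking. Of 26 AP genes, 13 were higher in the high cells and the median was -0.05. By at least 2, 0 were higher, against 12.9% of all genes, and 3 were lower (11.5%), against 10.6%. Sox2 had means of 11.72 ± 0.57 and 12.16 ± 0.63 (SD, n = 6 each) in high and low cells and Pax6 12.02 ± 0.63 and 11.85 ± 0.56, differences below or near the spread between cells. The 4 members of largest difference that reached 20 copies were Sox9 (-2.17), a stem cell factor, Gli3 (-1.48), the main transcriptional repressor of Hedgehog signalling, Notch1 (-1.03) and the secreted Fgfbp3 (0.97), and the groups overlapped in each. In the Notch list the median was 0.05, with 12 of 23 genes higher. The protease Adam10, which cleaves Notch, differed by 2.82, though its next probe set gave -0.20, the Notch-regulated Nrarp by -0.81 and Rbpj, the DNA-binding effector, by 0.56.

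IP genes had a median of 0.02 over 18 members and neuronal genes of -0.29 over 14, and none was higher by at least 2. The IP median was -1.69 over the fewer genes left when the level had to be reached in 3 of the 17 cells, and the neuronal median ran from -0.76 without E16-81E to -0.11 without E16-81A. Of the 18 IP genes, 2 (11.1%) were lower in the high cells by at least 2, near the share over all genes (10.6%). These were Insm1 and Neurog2, which drive the step from AP to IP. Insm1 was over 20 copies in 1 high and 4 low cells and Neurog2 in 0 and 2. Neither reached the level on average, and both were singled out after their values were seen. Among neuronal genes that reached it, Sox11 differed by 1.97, Dpysl3 by -1.62 and Map2 by -0.58.

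The temporal-axis genes are 10 late and 10 early genes that the study selected on E11 and E14 cells, so that the E11 arrays took part in their choice. The temporal score of a cell, its mean over late minus its mean over early genes, was 7.15 ± 1 in the high cells, 7.99 ± 1.05 in the middle cells and 7.20 ± 1.37 in the low cells (SD, n = 6, 5 and 6 cells). High and low cells differed by -0.04, less than the spread between cells, and by -0.36 to 0.30 with 1 cell left out. In the 23 E11 APs the same score ran from -8.76 to -1.96, below every E16 cell (5.40 to 8.93), a separation that the choice of the genes partly sets. By the E11 ranking it was -5.25 ± 2.28 in the 6 high, -6.88 ± 0.92 in the 11 middle and -6.59 ± 1.47 in the 6 low cells.

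Of the late genes, Ptn, a secreted growth factor, stood at 12.47, 12.75 and 13.71 in the high cells and 12.50, 12.81 and 13.52 in the low cells, and Aldoc, a glycolytic enzyme of radial glia and astrocytes, at 11.31, 13.08 and 13.42 and 12.33, 13.28 and 13.56. Rlbp1, a retinaldehyde-binding protein, differed by -0.44 and the adaptor Pag1 by -0.22. Ptn, Aldoc and Rlbp1 were over 20 copies in all 17 cells. Ednrb, the endothelin B receptor, passed it in 4 high, 4 middle and 6 low cells, Adgrb3, an adhesion receptor, in 2, 4 and 4, and the ephrin receptor Epha5 in 1, 3 and 4. Rnf180, a ubiquitin ligase, was over it in all but the low cell E16-77M, which sets its mean difference of 2.37, and the transcription factor Zbtb20 in 3, 2 and 2 cells. Sema5a was under the level in all 17 cells. High and low cells overlapped for each of the 10.

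The early genes were near or below detection at E16. Crabp2, Fndc3c1, Sulf2, Chst2, Dmrt3, Tubb3, Dmrta1 and Flrt3 were over 20 copies in 0 of the 17 cells, Lrrn1 in 1 low cell and Oaf, the most frequent, in 2 high, 1 middle and 2 low cells. By list mean, the early genes stood at 2.38 ± 0.47 in the high cells and 2.79 ± 0.60 in the low cells, and the late genes at 9.53 ± 0.78 and 9.99 ± 0.86.

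**Figure D4:**
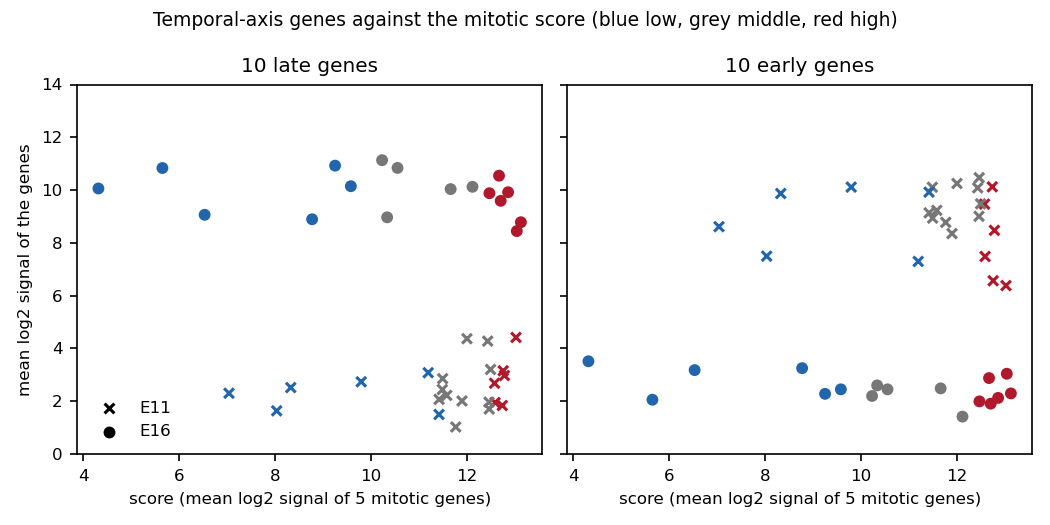
Mean log2 signal of 10 late (left) and 10 early (right) temporal-axis genes in each AP against the mitotic score, with E16 cells as dots and E11 cells as crosses, coloured by the 6 low (blue), middle (grey) and 6 high (red) cells of each stage. At E16, late genes lie between 8.45 and 11.13 and early genes between 1.42 and 3.52 at all scores.

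Among 22 G1 cyclins, inhibitors of cyclin-dependent kinases and pocket proteins, the median was -0.02. Cdkn1b, or p27, was higher in the high cells (9.03, 10.31 and 11.35 against 2.09, 8.59 and 10.79), with overlap. Cdk6 was over 20 copies in all 17 cells (0.66), whereas Ccnd2, whose mRNA is carried to the basal endfoot of APs, differed by -1.35 with a single high cell, E16-78O, at 2.37 and the low cells from 11.21 to 12.70. Cdkn2d differed by -1.66. For genes of apical junctions and polarity the median was -0.05, with Tjp1 at 2.43, the polarity kinase Prkci at -2.14, Msn at 1.67 and N-cadherin, Cdh2, at 1.17. Cdh2 passed 20 copies in 6 high and 5 low cells.

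Lists of stress and growth gave medians of 0.67 for immediate-early genes (9 measured), -0.03 for p53 targets and stress genes (10) and 0.21 for ribosome biogenesis (21). The factor gene Jun differed by 0.67, the chaperone genes Hspa5 and Dnajb1 by -0.20 and -0.02, and Nhp2, Rrp1, Nop56 and Ebna1bp2, of ribosome assembly, by 1.90, 0.72, -2.03 and 2.36, the last being -1.23 by its next probe set. Among 10 housekeeping genes (median -0.20), Gapdh had means of 13.47 ± 0.10 and 13.52 ± 0.18, Actb 12.75 ± 0.47 and 12.07 ± 0.44, and Pgk1, Ywhaz and Sdha differed by -0.49, -0.50 and 2.46. Of lists for blood, microglia, vessels, mesenchyme and glia, 5, 2, 3, 2 and 5 genes passed the filter and no interneuron gene did. By the probe sets past the filter, the microglial genes Csf1r and Tyrobp were over 20 copies in the same single low cell, the pericyte gene Pdgfrb in 1 low cell, Col1a2 in 1 high and 1 middle cell, Olig1 in 1 high cell and Olig2 in 1 low and 1 middle cell, and globin genes in 0 of 17.

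The same split of the 23 E11 APs, none of which took part in the E16 ranking, put 6 cells of score 12.58 to 13.03 against 6 of 7.04 to 11.42. Over all genes the median difference was -0.03. There, 9.41% of genes were at least 2 higher and 10% at least 2 lower in the high cells, and 0.158% and 0.0927% did not overlap in the 2 directions. Medians at E11 and E16 were 2.94 and 3.59 for the spindle list, 2.23 and 3.19 for the G2/M list, 1.12 and 2.25 for the kinetochore list, 0.88 and 0.83 for mitotic chromatin and 0.30 and 1 for the anaphase-promoting complex. The replication list stood at -1 at E11 and -1.85 at E16, with 17 of 57 genes lower by at least 2 and 2 higher at E11. AP genes stood at -0.20 and -0.05. Late temporal genes had a median of 0.50 at E11 and -0.28 at E16, and early ones of -1.17 and -0.21. With 1 cell left out, the E16 median of the late genes ran from -0.40 without E16-81P to -0.053 without E16-78O, and that of the early genes from -0.74 without E16-81J to -0.042 without E16-81A. Whether the stages differ was not tested.

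Genes were also set side by side at the 2 stages. Of the 28 genes whose E16 high cells lay above all low cells, 21 had the same direction at E11, against 50.2% of all genes higher at E16, and H2ax also did not overlap there. Of the 20 that lay below, 15 had the same direction, against 52.2% of all genes lower at E16, and 0 did not overlap. Among the 15 largest positive differences, 11 had the same direction at E11 (54.3% of all genes at least 2 higher did) and 6 reached 2, with Arhgap19 at 5.40, Cdc25c at 3.03 and Pif1 at 2.67, whereas Slc30a9 stood at -0.34 and Qars at -1.40. Cdc25c was over 20 copies in 4 high and 4 low E11 cells. Among the 15 largest negative ones, 11 had the same direction (55.0% of all genes at least 2 lower did) and 4 reached 2, with Acap2 at -4.04 and Tcf19 at -3.47. Mcm6 was over 20 copies in 6 of 6 high and 6 of 6 low E11 cells, a difference of -1.

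**Figure D5:**
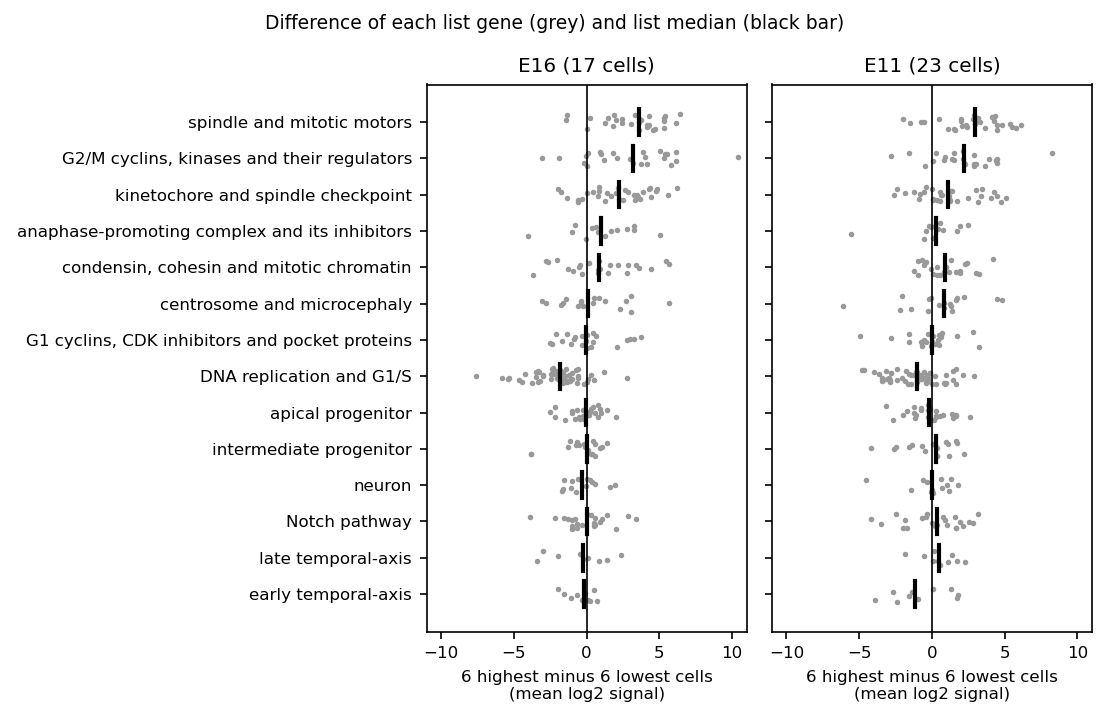
Mean log2 signal of the 6 highest minus the 6 lowest cells for each gene of 14 lists (grey dots) with the list median (black bar), in E16 APs (left) and E11 APs (right). Spindle genes lie well above 0 in both (3.59 and 2.94), replication genes are lowest at E16 (-1.85), and identity and Notch lists centre near 0.

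Placed on the range of the series, the score had medians of 10.56 in E16 APs, 12.11 in 10 E16 IPs and 11.90 in 23 E11 APs. It was 4.82 in the E16 neuron, a postmitotic cell, within the range of the 6 low APs, and E11 neurons lay at 3.65, 7.57 and 8.72. At or above the lowest high cell were 3 of 10 E16 IPs and 7 of 23 E11 APs. The 4 APs at E14 that overexpressed NICD and p18 scored 2.70 to 7.84, all within or below the range of the low E16 APs. Arrays of those cells had been scaled differently from those of E16, and the effect of this was not tested.

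Array brightness and cell names were compared along the ranking. The trimmed mean signal as deposited had a lowest, median and highest value of 114, 189 and 236 in the high cells, 99.7, 117 and 202 in the middle cells and 69.4, 116 and 166 in the low cells, so high cells tended to be brighter, with overlap. The lys spike, amplified in the same tubes, had means of 8371 in the high and 7879 in the low cells. With signals scaled to lys, the high cells were still brighter over all genes, by a median of 0.54 against 0.58 as deposited. At E11 the trimmed mean ran the other way, with medians of 183 in the high and 209.5 in the low cells. The number 81 stood in the names of 3 high, 3 middle and 4 low cells, and the labels do not say what that number is. Among those 10 cells alone, the 5 higher against the 5 lower gave list medians of 3.52 for the spindle, 3.58 for G2/M and -1.67 for replication genes.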

How the data were processed

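Each of the 68 arrays holds the amplified cDNA of 1 mouse cell, of which 17 E16 APs are described here. The intensity values deposited by the authors are linear MAS5 signals per probe set, per the submitters' processing notes, and MAS5's version is not given in the sources used here. All arrays were quantile normalized together and log2 transformed without an offset. Of 45101 probe sets, 34958 carry 1 gene symbol, 932 several, and 9211 are not in the gene table. Symbols were updated through RefSeq gene identifiers (GRCm38.p6). Probe sets that reached the median signal of the 20-copy phe spike (842) in at least 1 of 68 cells were kept (20721 probe sets, 10789 genes), and the one of highest mean stood for a gene. Ccnb1 could not be matched to a probe set, so the score used 5 of its 6 genes. The number of arrays and cells limits the precision.

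Named genes are the rule genes, the 15 largest differences in each direction and the 4 largest in each list whose higher group mean reached the 20-copy level, all temporal-axis genes, Gapdh and Actb. Of the 15 largest positive differences, 1 is not reported here. Genes annotated as pseudogene or antisense or under several symbols were left out of the naming, and other genes named were chosen after their values were seen. The members, lists and comparisons were chosen with earlier results of these data known. AP, IP and neuron types follow the study's dendrogram, in which the name E16-78C is hard to read. The E11 cell E11-31i was left out, as in the study. No 2 of the 17 arrays were identical. Promoter windows are the first listed for each gene. Alternatives covered normalization, an offset, probe sets, the filter, the score's genes, the number of cells and each cell left out. The comparison was run on simulated data with known differences. There the changed genes had less noise between cells than is typical of these arrays, so only the computation was checked. Scripts ran in Python 3.11.15 (numpy 2.4.6, pandas 2.3.3; figures by matplotlib 3.10.9).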

Additional observations from a re-analysis of the deposited data

Results flagged for a closer look

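In 34 of 246 groups of 6 cells examined (the named genes, list means and temporal score in high and in low cells), 1 cell lay apart from the other 5, by a gap that took up most of the group's range (Dixon's criterion). Chance flags about 1 in 20 groups for normally distributed values. No gene had its groups apart in opposite directions at E16 and E11.

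E16-78O stood below the other high cells in the mean of the anaphase-promoting complex and its inhibitors list (8.28 against the nearest cell's 9.81), Anapc10 (3.12 against 9.36), Ccnd2 (2.37 against 11.39), Gli3 (4.32 against 10.13), Aldoc (11.31 against 12.75) and Fndc3c1 (0.030 against 1.13). E16-78O stood above the other high cells in Flrt3 (9.01 against 1.33). E16-77M stood below the other low cells in Gpr137b (5.36 against 11.43), Rnf180 (-0.19 against 10.61) and Nhp2 (3.83 against 9.04). E16-77M stood above the other low cells in the mean of the neuron list (7.55 against 5.49) and Lrrn1 (9.86 against 3.40). E16-81P stood below the other high cells in the mean of the spindle and mitotic motors list (9.72 against 10.22), Sae1 (4.83 against 9.92), Nsun2 (8.10 against 10.08) and Cdkn3 (3.99 against 9.94). E16-81J stood below the other low cells in Vps4b (5.37 against 11.63), Dock1 (10.06 against 10.64), Stradb (2.51 against 10.74) and Pag1 (8.69 against 11.20). E16-81A stood below the other high cells in Gjc1 (5.38 against 10.93). E16-81A stood above the other high cells in Lrrn1 (8.64 against 1.24) and Tubb3 (5.07 against 0.77). E16-78G stood below the other high cells in Ednrb (0.0071 against 8.22) and Nop56 (1.72 against 9.72). E16-78G stood above the other high cells in Nit2 (10.30 against 4.29). E16-81M stood below the other low cells in Adgrb3 (1.25 against 9.57). E16-81M stood above the other low cells in Pgk1 (12.88 against 12.41) and Flrt3 (4.08 against 1.86). E16-76F stood below the other low cells in Dnajb1 (3.52 against 10.25). E16-76F stood above the other low cells in Arhgap19 (9.67 against 3.58). E16-81E stood below the other low cells in Ube2s (2.70 against 8.33) and Map2 (3.22 against 9.47). E16-81G stood below the other low cells in Rfc4 (5.91 against 9.81).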

How the results depend on the processing

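Of 593 recomputed list medians, counts and scores, 538 stayed within the spread between cells or, for counts, within 1.5 times. With signals as deposited or scaled to the lys spike, the high cells were brighter over all genes by 0.58 and 0.54, and relative to this the list medians held. Genes without overlap, counted with that brightness difference left in, numbered 62 and 52 higher and 3 and 3 lower. An offset of 100 lowered the spindle median to 1.92 and the genes past 2 to 229 higher and 142 lower. Raising all signals to the 20-copy level, chosen after seeing the data, left 7 and 4 past 2 and 17 and 4 without overlap, with medians of 0.92 for G2/M, 0.16 for kinetochore, 0.79 for spindle, 0.21 for anaphase-promoting complex, 0.50 for all mitosis and -0.46 for replication genes. Without the 3 lowest cells (also added), the G2/M and spindle medians were 1.43 and 2.28, and 138 and 138 genes did not overlap. Genes without overlap numbered 65 higher and 59 lower for 5 against 5 cells, 7 and 0 for 8 against 8 and 99 and 93 among cells named 81, by construction more with fewer cells. Without a filter 40 were lower without overlap. With the level required in 3 of 17 cells, 11 were, 717 were past 2 lower, and the IP median, over fewer genes, was -1.69. At E11 with E11-31i, 28 genes did not overlap higher. Leaving out each of the 12 cells in turn gave 37 to 51 genes higher and 31 to 46 lower without overlap. Of 2879 recomputed values of 107 named genes, 2746 stayed within the spread and 124 moved beyond it. Sign changes of differences smaller than the spread are counted among these. The other 9 changed sign from a difference larger than the spread. With the next probe set these were Sae1 (-0.37), Acap2 (0.45), Gpr137b (0.19), Spast (2.41), Stradb (0.56), Aspm (-1.15), Adam10 (-0.20) and Ebna1bp2 (-1.23), and within cells named 81, Bhlhb9 (0.52); the cause was not tested. No paired analysis was possible because no label pairs a high with a low cell, and the number in a cell's name is not stated to be a batch.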
